A study of Rattus norvegicus with 10 samples.

Results

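The 14-3-3 family was taken as the 7 genes of the deposited table with the symbols Ywhab, Ywhae, Ywhag, Ywhah, Ywhaq, Ywhaz and Sfn, out of 23918 genes, and they were represented by 10 of its 31715 transcripts. Ywhag, Ywhah and Ywhaz had 2 transcripts each and the other 4 genes had 1. The cells were β-cells sorted from dispersed islets of adult rats by their autofluorescence, and the study's methods name male Sprague–Dawley rats as its adult animals. They received either 4 pooled siRNAs against rat Scrt1, a transcriptional repressor (siScrt1, replicates A to E), or a negative control (siCtrl, replicates 1 to 5), and RNA was taken 48 h later. Both groups were therefore sorted, plated on matrix and exposed to the same transfection reagent, and the cells were measured in bulk by RNA-seq with 5 libraries per group.

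14-3-3 proteins are small acidic adaptors that work as dimers. Each dimer holds short stretches of other proteins, called clients, once a kinase has phosphorylated a serine or threonine in them, and this keeps a client in the cytoplasm, hides an active site or guards it from phosphatases. Clients include FOXO and CRTC transcription factors, class IIa histone deacetylases, the cell death protein BAD and the CDC25 phosphatases, so that the family sits between kinases such as AKT and growth, survival and gene expression. In β-cells, 14-3-3 proteins are known as binding partners of proteins of survival and insulin signalling. The genes encode the isoforms beta (Ywhab), epsilon (Ywhae), gamma (Ywhag), eta (Ywhah), theta (Ywhaq) and zeta (Ywhaz), and Sfn encodes sigma, also called stratifin, the isoform known from epithelia.

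Because Scrt1 belongs to the Snail-related factors that read the E-box CAGGTG, the 250 bases before the start of each member were searched for it on both strands in the RefSeq promoters of rat build GRCr8, which held 6 of the 7 members, all but Ywhaz. CAGGTG, or CACCTG as it reads on the other strand, was present in 1 of these 6, Sfn, and in 15.9% of all 33469 promoters of this length. The 3 promoters below are those of Ywhag, whose groups did not overlap, of Ywhae, whose groups did, and of Sfn, and capitals mark the motif.
Ywhag, chr12:26380969-26381218, plus strand: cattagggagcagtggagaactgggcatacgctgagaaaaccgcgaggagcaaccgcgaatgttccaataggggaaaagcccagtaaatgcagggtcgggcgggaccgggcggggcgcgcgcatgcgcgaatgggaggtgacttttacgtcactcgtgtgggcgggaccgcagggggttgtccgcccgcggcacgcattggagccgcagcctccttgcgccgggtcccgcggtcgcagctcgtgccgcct
Ywhae, chr10:61082684-61082933, plus strand: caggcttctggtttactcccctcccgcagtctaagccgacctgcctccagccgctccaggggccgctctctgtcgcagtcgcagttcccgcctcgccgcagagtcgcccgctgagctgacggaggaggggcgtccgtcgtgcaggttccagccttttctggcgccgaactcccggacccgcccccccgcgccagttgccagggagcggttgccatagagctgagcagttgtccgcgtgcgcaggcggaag
Sfn, chr5:151111855-151112104, minus strand: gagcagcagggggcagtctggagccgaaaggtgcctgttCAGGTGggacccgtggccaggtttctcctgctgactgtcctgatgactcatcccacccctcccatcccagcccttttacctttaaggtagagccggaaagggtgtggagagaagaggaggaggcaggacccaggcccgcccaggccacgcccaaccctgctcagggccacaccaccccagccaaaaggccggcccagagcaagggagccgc
In Sfn the motif started 211 bases before the start of the gene. A match describes letters only, and its absence from these windows says nothing of binding elsewhere.

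Depth was 12975086 to 16452119 recovered reads per library in siCtrl and 11901342 to 17444034 in siScrt1, where a recovered read is the deposited scaled count divided by the value of 1 read in that library. Scrt1 itself had 215, 156, 213, 250 and 166 scaled counts in siCtrl replicates 1 to 5, against 83.3, 62.3, 63.1, 30.5 and 22.8 in replicates A to E of siScrt1, a mean 73.8% lower (log2 fold change -2.06, SE 0.308, adjusted p = 0.00618 by limma). It was lowest in replicates D and E. The 8 β-cell markers summed to 102884 to 166031 CPM (reads relative to the library total) in siCtrl and 104869 to 150961 CPM in siScrt1. Most of this sum was Ins1 and Ins2. The 3 α-cell markers summed to 211 to 579 and 207 to 460 CPM, nearly all of it Gcg. Acinar markers stayed under 4.86 CPM, immune markers under 1.65 CPM and endothelial markers under 0.686 CPM in sum. Delta- and PP-cell markers summed to 16.5 to 73.9 CPM in siCtrl and 20.2 to 82.2 CPM in siScrt1. Mesenchymal markers summed to 3.71 to 16.8 CPM in siCtrl and 4.72 to 30.6 CPM in siScrt1, where replicate D was the highest. None of the 8 marker lists, each tested as a sum and not gene by gene, passed a test for a difference between the groups (exact two-sided permutation tests, adjusted p = 0.914 to 0.929). In bulk samples fewer cells of a type and less RNA per cell cannot be told apart.

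The first question was how much of each isoform the sorted cells held. On the TPM scale, which corrects for transcript length, the siCtrl cells had 226 ± 11.9 TPM of Ywhaz and 219 ± 11.6 of Ywhae, followed by 150 ± 7.84 of Ywhag, 127 ± 13.4 of Ywhaq, 123 ± 14.5 of Ywhab and 90.2 ± 5.29 of Ywhah (n = 5 per group, SD). Sfn stood far apart at 0.382 ± 0.268 TPM. The deposited TPM had been scaled between libraries, and their totals ran from 821278 in siCtrl replicate 2 to 1153952 in siCtrl replicate 3. Ywhaz and Ywhae ranked 234 and 242 among the 23918 genes, and the lowest of the 6 Ywha genes, Ywhah, still ranked 718. Ywhaz lay above Ywhae in 4 of 5 siCtrl libraries, and their ranges overlapped, as did those of Ywhag and Ywhaq and those of Ywhaq and Ywhab. The steps from Ywhae to Ywhag and from Ywhab to Ywhah had no overlap.

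In siScrt1 the order was another. Ywhae came first with 233 ± 25.2 TPM, above Ywhaz with 185 ± 9.35 in 5 of 5 libraries, and the ranges of these levels no longer overlapped. Ywhag, which held the third place in siCtrl, was behind Ywhaq and Ywhab with 104 ± 19.9 TPM, where Ywhaq had 123 ± 5.99 and Ywhab 120 ± 9.69, and just before Ywhah with 93.6 ± 8.57 (n = 5 per group, SD). The ranges of Ywhaq and Ywhab, of Ywhab and Ywhag, and of Ywhag and Ywhah overlapped in siScrt1.

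**Figure D1:**
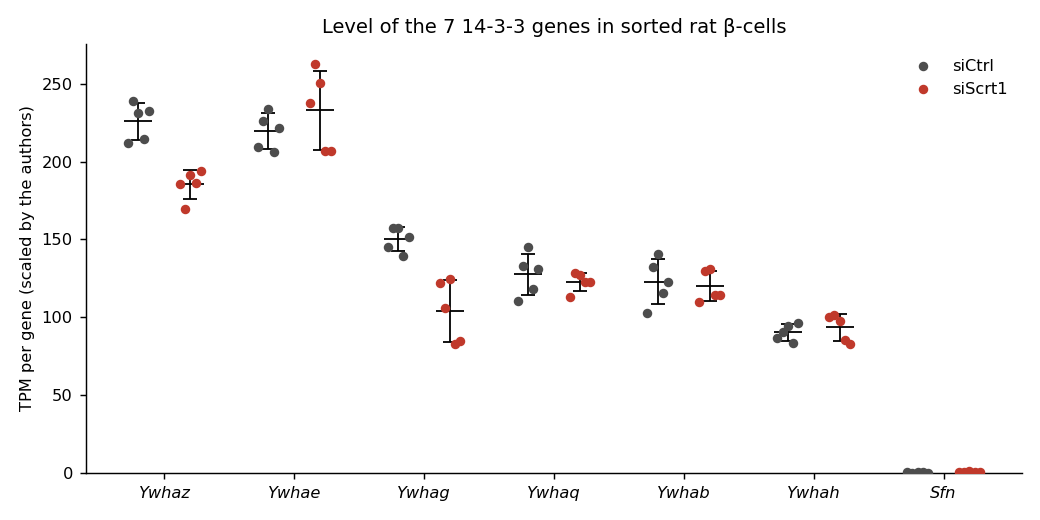
TPM per gene (vertical axis) of the 7 members in each library, with siCtrl in grey, siScrt1 in red, and black bars for the mean and SD of 5 libraries. The red points of Ywhaz and Ywhag lie below all grey ones, those of the other Ywha genes overlap, and Sfn lies at the axis with 0 to 1.34 TPM.

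As a share of the TPM of all 7 genes, Ywhag made up 16.0% ± 0.416 in siCtrl and 12.0% ± 1.70 in siScrt1, and Ywhaz 24.1% ± 0.605 and 21.7% ± 2.05. Ywhae made up 23.5% ± 0.403 and 27.1% ± 1.42 (n = 5 per group, SD). A share can move because another member moves. The summed level of the family was 936 ± 60.6 TPM in siCtrl, with a range of 867 to 1002, and 859 ± 55.0 TPM in siScrt1, with a range of 799.6 to 923.3 (n = 5 per group, SD), so that the sums of the groups overlapped.

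The next question was which members changed after Scrt1 silencing. Of the 7 members, 6 passed the filter on low values, and 1 of these 6, Ywhaz, passed the limma test over all genes, being lowered. Over all 12941 genes tested, 1.05% passed and 0.680% passed as lowered. The groups did not overlap for 2 members, Ywhag and Ywhaz, against 3.51% of all genes tested. The median log2 fold change of the 6 members was -0.04, beside 0.00 over all genes.

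Ywhaz (ENSRNOG00000008195), the zeta isoform and a partner of BAD, had 5411, 6134, 5968, 5505 and 5973 scaled counts in siCtrl replicates 1 to 5. The siScrt1 replicates A to E had 4734, 4346, 4883, 4771 and 4954. Every siScrt1 library lay below every siCtrl library, and siScrt1 replicate B was the lowest. The mean fell by 18.3%, from 5798 ± 319 to 4738 ± 236 scaled counts (n = 5 per group, SD), a log2 fold change of -0.29 (SE 0.0619, adjusted p = 0.0440 by limma). The call was close to the threshold. It was kept without siCtrl replicate 1 (adjusted p = 0.0424 by limma) and lost, at adjusted p = 0.0688 to 0.130 by limma, without siCtrl replicate 2, 3, 4 or 5 or without siScrt1 replicate A, B, C, D or E.

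Ywhag (ENSRNOG00000001436), the gamma isoform, is abundant in nerve and muscle. It had 6726, 7263, 7475, 6244 and 6942 scaled counts in siCtrl replicates 1 to 5, and 5610, 4958, 5883, 3752 and 3889 in replicates A to E of siScrt1. The groups did not overlap, and the siScrt1 libraries were spread wider than the siCtrl libraries. Replicates D and E, the libraries with the least Scrt1, were the lowest. They were also the lowest siScrt1 libraries for Ywhae and Ywhah, which did not pass, while replicate E was the highest for Ywhaz. A relation to the level of Scrt1 was not tested. The means of Ywhag were 6930 ± 480 and 4819 ± 972 scaled counts (n = 5 per group, SD), or 30.5% lower in siScrt1. The log2 fold change was -0.55 with a 95% interval of -0.81 to -0.28 (SE 0.122, adjusted p = 0.0565 by limma), which missed the threshold.

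The deposited table numbers the libraries 1 to 5 in each group, and same-numbered libraries deviated together. With this number as a block Ywhag passed (adjusted p = 0.00906 by limma), and so did Ywhaz (adjusted p = 0.0383 by limma), where 2.00% of all genes passed with the block. Without the block and with 1 library left out, Ywhag passed without siScrt1 replicate A or C, its highest siScrt1 libraries (adjusted p = 0.0438 and 0.0355 by limma), and did not pass in the other 8 cases (adjusted p = 0.0761 to 0.142 by limma). The study named Ywhag among its potential Scrt1 targets, with a figure that also held microarray changes between islets of pups and adults. It defined putative targets by a SCRT1 motif in accessible chromatin near the gene, taken from separate ATAC-seq of islets. Their change was taken from these same libraries, tested with sleuth, whereas Ywhag missed the threshold here in limma without the block. The direction of Ywhag is therefore not independent evidence, and the chromatin and microarray data were not used here.

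**Figure D2:**
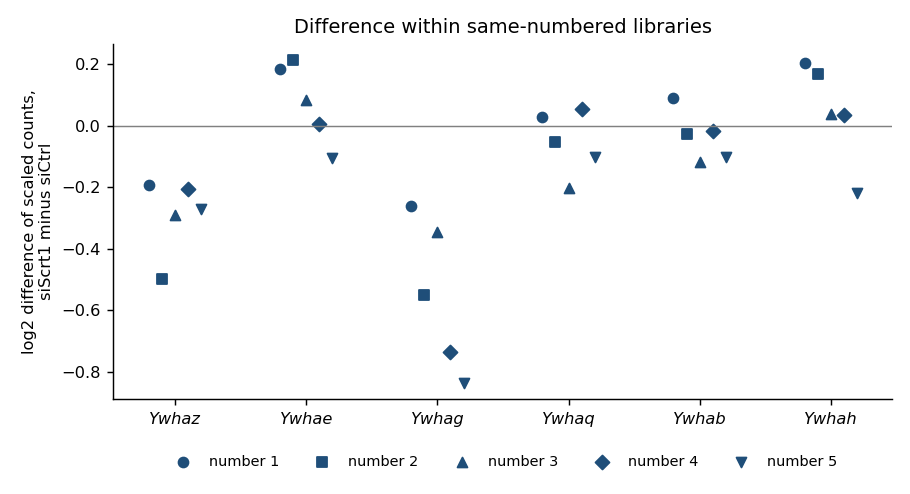
Log2 difference of scaled counts between the siScrt1 and the siCtrl library of the same number (vertical axis) for the 6 Ywha genes, with a symbol for each number. Ywhaz and Ywhag are below 0 in 5 of 5 numbers, from -0.19 to -0.50 and from -0.26 to -0.84, and the other 4 genes have values on both sides of 0.

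The other Ywha genes did not pass. Ywhae (ENSRNOG00000005290), the epsilon isoform, known as a partner of CDC25 phosphatases, had 5168, 5615, 5836, 5112 and 5499 scaled counts in siCtrl replicates 1 to 5, against 5871, 6510, 6185, 5131 and 5119 in replicates A to E of siScrt1. Its highest siScrt1 values were in replicates A to C, and the groups overlapped. The log2 fold change was 0.08 with a 95% interval of -0.10 to 0.25 (SE 0.0794, adjusted p = 0.771 by limma).

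Ywhab (ENSRNOG00000010945), the beta isoform, had 4119, 5311, 5678, 4649 and 4917 scaled counts in siCtrl and 4386, 5210, 5231, 4594 and 4587 in siScrt1. Its siCtrl libraries already spanned the whole range of siScrt1. The log2 fold change was -0.03, with a 95% interval of -0.23 to 0.16 (adjusted p = 0.918 by limma).

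Ywhaq (ENSRNOG00000051650), the theta isoform, first known from T cells, had 3373, 4070, 4461, 3617 and 4016 scaled counts in siCtrl and 3443, 3925, 3876, 3753 and 3747 in siScrt1. The siScrt1 values again lay within the siCtrl range, with a log2 fold change of -0.05 and a 95% interval of -0.22 to 0.11 (adjusted p = 0.843 by limma). Ywhah (ENSRNOG00000055471), the eta isoform, had 2056, 2161, 2267, 1987 and 2297 scaled counts in siCtrl and 2368, 2430, 2329, 2037 and 1976 in siScrt1. Replicates A to C of siScrt1 were above all siCtrl libraries and replicate E was below them, and the log2 fold change was 0.05 with a 95% interval of -0.11 to 0.21 (adjusted p = 0.866 by limma).

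The intervals of these 4 members reach from -0.23 to 0.25 on the log2 scale without the block. All 4 kept their lack of a call in the 18 alternatives tried, 10 of which each left out 1 library.

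**Figure D3:**
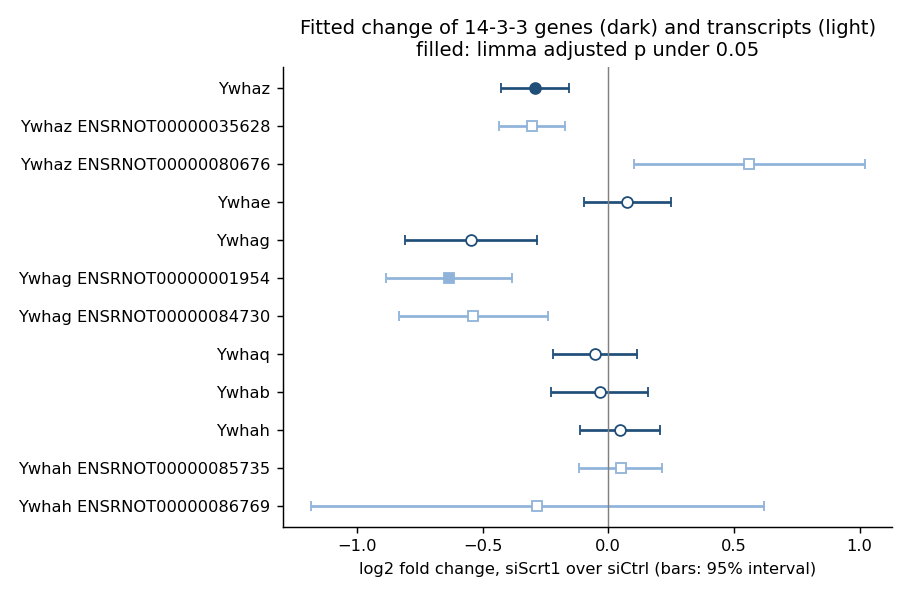
Fitted log2 fold change of siScrt1 over siCtrl (horizontal axis, bars are 95% intervals) for the 6 Ywha genes in dark blue and for the transcripts of genes with 2 transcripts in light blue. Filled symbols, with limma adjusted p under 0.05, are the Ywhaz gene at -0.29 and the Ywhag transcript ENSRNOT00000001954 at -0.63.

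Whether Ywhag and Ywhaz moved apart from the other members was tested on the log2 ratio of scaled counts within each library, for all 15 pairs of the 6 Ywha genes. The ratio differed between the groups in 8 pairs (exact two-sided permutation test, adjusted over the 15 pairs), which were the 4 pairs of Ywhag and the 4 pairs of Ywhaz with Ywhab, Ywhae, Ywhah and Ywhaq. These 8 tests reuse Ywhag and Ywhaz, whose groups did not overlap, so they are not 8 separate results. The share of other gene pairs whose ratio differs was not computed. The log2 ratio of Ywhae to Ywhag was -0.35 ± 0.0365 in siCtrl and 0.28 ± 0.190 in siScrt1 (n = 5 per group, SD), a difference of 0.62 (exact permutation p = 0.00794, the smallest possible, adjusted p = 0.0198). The log2 ratio of Ywhae to Ywhaz was -0.09 ± 0.0402 and 0.28 ± 0.213 (n = 5 per group, SD), a difference of 0.37 (exact permutation p = 0.00794, adjusted p = 0.0198).

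None of the 6 pairs that held neither Ywhag nor Ywhaz passed. The log2 ratio of Ywhag to Ywhaz itself was 0.26 ± 0.0618 in siCtrl and 0.00 ± 0.320 in siScrt1 (n = 5 per group, SD), a difference of -0.25 (exact permutation p = 0.143, adjusted p = 0.214). It was lower in siScrt1 in 5 of 5 same-numbered pairs. Ywhag and Ywhaz were furthest apart in number 4, at -0.73 and -0.21, and in number 5, at -0.84 and -0.27. The permutation test did not use the number and did not pass, so that a larger change of Ywhag than of Ywhaz was not shown. The ratios hold within a library and do not depend on the scaling between libraries.

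Transcripts were examined next. Of the 10 member transcripts 9 passed the filter, and 1 of these, the shorter Ywhag transcript, passed the limma test, where 0.415% of the 17578 transcripts tested did. The groups did not overlap for 3 member transcripts, against 2.53% of all. Reads that fit several transcripts had been shared between them, and the uncertainty of this sharing was not modelled. For Ywhag, Ywhah and Ywhaz the recovered reads of the transcripts summed to a whole number (within 0.01) in 10 of 10 libraries, which is what sharing within the gene alone gives. For Ywhaq this held in 9 of 10 libraries.

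Ywhag was carried by ENSRNOT00000084730, of 3410 bases, and ENSRNOT00000001954, of 1604 bases. The shorter had 586, 701, 546, 753 and 693 scaled counts in siCtrl replicates 1 to 5, against 526, 399, 418, 404 and 367 in replicates A to E of siScrt1. Every siScrt1 value was below every siCtrl value, by a narrow gap between siScrt1 replicate A and siCtrl replicate 3. It fell by 0.63 on the log2 scale (SE 0.115, adjusted p = 0.0444 by limma). With the library number as a block this call was lost (adjusted p = 0.143 by limma, where 0.165% of all transcripts passed).

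Leaving out siCtrl replicate 3 or siScrt1 replicate A kept the call of the shorter Ywhag transcript (adjusted p = 0.0421 and 0.0203 by limma). It was lost, at adjusted p = 0.0583 to 0.132 by limma, when replicate 1, 2, 4 or 5 of siCtrl or replicate B, C, D or E of siScrt1 was left out. The longer transcript had 6140, 6563, 6929, 5491 and 6249 scaled counts in siCtrl and 5084, 4559, 5466, 3348 and 3522 in siScrt1. Its groups did not overlap either, and its log2 fold change of -0.54 (SE 0.135, adjusted p = 0.177 by limma) was close to that of the shorter one.

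The shorter transcript made up 19.4% ± 3.16 of the gene's TPM in siCtrl and 18.3% ± 2.59 in siScrt1 (n = 5 per group, SD), which differ by less than the spread between libraries (two-sided exact permutation, p = 0.571). Both transcripts of Ywhag were thus lower in every siScrt1 library, and no change of their proportion was detected.

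For Ywhaz, ENSRNOT00000035628, of 1794 bases, carried nearly all of the level. It had 5347, 6074, 5923, 5439 and 5900 scaled counts in siCtrl and 4640, 4234, 4774, 4680 and 4898 in siScrt1, with no overlap and a log2 fold change of -0.30 (SE 0.0599, adjusted p = 0.0683 by limma). The minor transcript ENSRNOT00000080676, of 1560 bases, stood on the other side, with 63.8, 60.3, 44.5, 66.1 and 72.7 scaled counts in siCtrl and 94.1, 112, 109, 91.1 and 55.8 in siScrt1. It was higher than all siCtrl libraries in siScrt1 replicates A to D and within their range in replicate E. Its log2 fold change of 0.56 (SE 0.209) did not pass (adjusted p = 0.426 by limma).

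The minor transcript made up 1.25% ± 0.236 of the Ywhaz TPM in siCtrl and 2.30% ± 0.628 in siScrt1 (n = 5 per group, SD; two-sided exact permutation, p = 0.0317, adjusted p = 0.0952 over the 3 genes with 2 transcripts). The share was higher in siScrt1 in 4 of 5 same-numbered pairs. The exception was number 5, with 1.42% in siCtrl and 1.32% in siScrt1. Leaving out siScrt1 replicate E, the library that goes against the others, gave an adjusted p = 0.0476 in the exact permutation test, and leaving out any other library gave 0.143 to 0.190. It rests on 48.3 to 134 recovered reads per library, part of which were divided between the transcripts by estimation.

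The minor transcript of Ywhah, ENSRNOT00000086769 of 1237 bases, had 15.3 to 46.5 scaled counts in siCtrl and 11.9 to 36.7 in siScrt1, and made up 1.94% ± 0.911 and 1.58% ± 0.792 of the gene's TPM (n = 5 per group, SD; two-sided exact permutation, p = 0.532). The main transcript ENSRNOT00000085735 had a log2 fold change of 0.05 (adjusted p = 0.879 by limma).

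**Figure D4:**
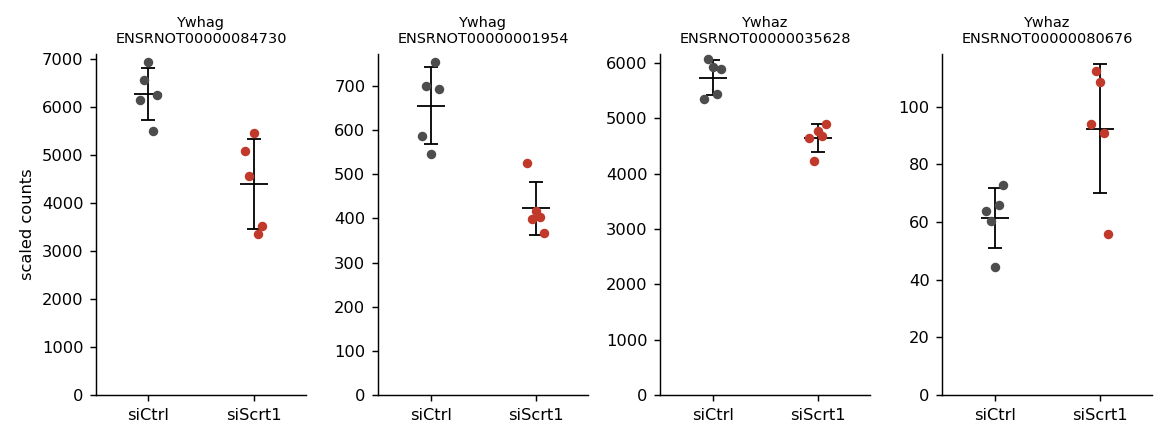
Scaled counts (vertical axes, each from 0) of both transcripts of Ywhag and of Ywhaz in siCtrl (grey) and siScrt1 (red), with bars for the mean and SD of 5 libraries. Both Ywhag transcripts and the main Ywhaz transcript are lower in all siScrt1 libraries, and the minor Ywhaz transcript is higher in 4 of 5.

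Sfn (ENSRNOG00000033153, transcript ENSRNOT00000043959 of 747 bases), the sigma isoform, known as a p53 target that halts the cell cycle, was at the limit of detection and did not pass the filter. Its recovered reads were 4.97, 0, 4, 6 and 2 in siCtrl replicates 1 to 5, and 3, 6.75, 11, 8.12 and 4.39 in replicates A to E of siScrt1. The groups overlapped, and 4 of the 10 values were not whole, so that some reads also fit another sequence. The 0 in siCtrl replicate 2 allows up to 3 reads, or 0.231 CPM, counting error only. Fitted without the filter, Sfn had a log2 fold change of 1.18 with a 95% interval of -0.24 to 2.59 (adjusted p = 0.656 by limma). The 5 duct markers, as signs of other epithelial cells, summed to 188 to 267 CPM in siCtrl and 201 to 267 CPM in siScrt1, nearly all of it Krt7, while Krt19, Sox9, Spp1 and Cftr stayed under 4.36 CPM each. Their part in the Sfn reads was not tested.

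The kinases that phosphorylate 14-3-3 binding sites and the clients that carry them were taken as lists of 61 genes, of which 57 were tested. Of these 57, 2 passed and both were lowered kinases, against 1.05% of all genes tested. Akt1, the kinase that writes the 14-3-3 sites of FOXO factors and BAD, had 132, 127, 165, 169 and 163 CPM in siCtrl and 83.8, 88.9, 92.3, 71.3 and 62.3 CPM in siScrt1. The groups did not overlap, and siScrt1 replicates D and E were the lowest. A relation to the level of Scrt1 was not tested for Akt1 either. Akt1 fell by 0.90 on the log2 scale (SE 0.132, adjusted p = 0.00568 by limma), and passed in all 18 alternatives.

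Rps6ka1, which encodes the kinase RSK1 downstream of ERK, had 32.2, 29.7, 29.7, 33.3 and 37.4 CPM in siCtrl and 23.4, 25.1, 23.3, 26.7 and 24.2 CPM in siScrt1. The groups did not overlap, and replicate D was the highest of the siScrt1 libraries. Rps6ka1 fell by 0.37 on the log2 scale (SE 0.0772, adjusted p = 0.0434 by limma). On log2(TPM + 1) the log2 fold change was -0.35 and the call was lost (adjusted p = 0.129 by limma). It kept its call without siCtrl replicate 2 (adjusted p = 0.0202 by limma) and lost it without any other single library, siCtrl replicate 1, 3, 4 or 5 or siScrt1 replicate A, B, C, D or E (adjusted p = 0.0739 to 0.115 by limma). The other 17 kinases did not pass.

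None of the 38 clients tested passed. The 12 transcription clients tested, of 14 listed, include FOXO factors, CRTC coactivators and class IIa histone deacetylases. Of these 12 clients, 12 had a positive log2 fold change, with a median of 0.21. Of all genes tested 51.0% were positive, and their median was 0.00. No set test was made and the list was chosen with earlier results of these data known, so this is a description. The smallest p-values of this list were those of Crtc3, a coactivator of CREB, at 0.37 (SE 0.0962, adjusted p = 0.115 by limma) and Foxo4 at 0.23 (adjusted p = 0.349 by limma).

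The 8 clients of cell death and the cell cycle had a median log2 fold change of -0.02, with Bad, the death protein held by 14-3-3 when AKT is active, at -0.36 (adjusted p = 0.368 by limma) and Map3k5, the stress kinase ASK1, at 0.20 (adjusted p = 0.597 by limma). The 10 clients of growth signalling had a median of -0.04. Irs1, an adaptor of the insulin receptor, was at 0.15 (adjusted p = 0.535 by limma). The 8 clients of metabolism and transport had a median of 0.01, with Pfkfb2, an enzyme that tunes glycolysis, at -0.14 (adjusted p = 0.321 by limma) and the potassium channel Kcnk3 at 0.14 (adjusted p = 0.646 by limma).

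**Figure D5:**
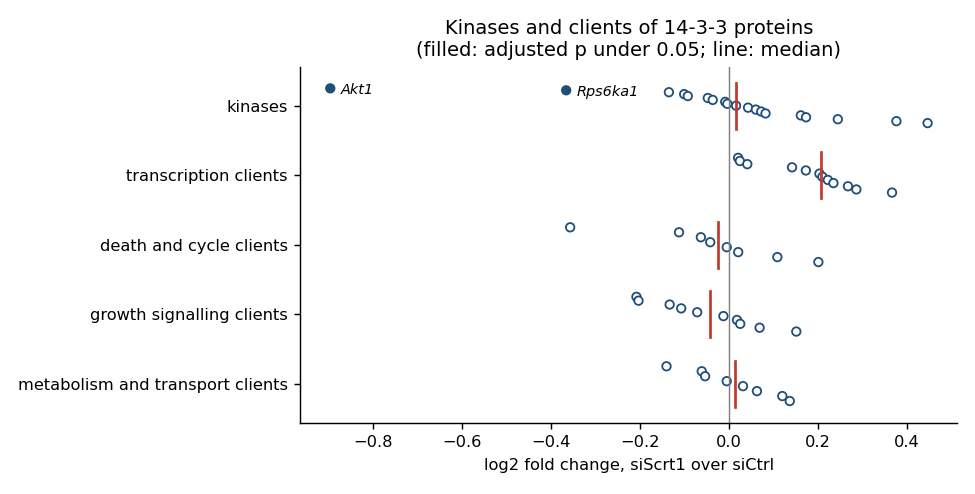
Log2 fold change of siScrt1 over siCtrl (horizontal axis) for the 57 kinases and clients tested, 1 circle per gene, with red lines for the list medians and filled circles for limma adjusted p under 0.05. Akt1 at -0.90 and Rps6ka1 at -0.37 are the filled circles, and the 12 transcription clients lie to the right of 0.

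The genes whose pattern over the 10 libraries was most like that of Ywhag were found as those with the smallest root mean square difference of centred log2 values, among the 10118 genes whose mean reached 5 CPM. These were Rab3d at 0.0901, Ugcg at 0.0964, AABR07031445.1 at 0.105, Slc25a17 at 0.107 and Dcaf7 at 0.120, where the median gene was at 0.371. Rab3d encodes a small GTPase of secretory granules and Ugcg the enzyme that makes glucosylceramide. Rab3d had 2269 to 2731 scaled counts in siCtrl and 1371 to 2022 in siScrt1, and Ugcg had 1370 to 1558 and 881 to 1245. Likeness to Ywhag includes its difference between the groups, so the differences of these 5 genes are a description.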

How the data were processed

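Single-end RNA-seq reads had been assigned by the authors to the rat Rnor6 transcriptome with kallisto and scaled between libraries with sleuth (per the submitters' notes also FastQC and Trimmomatic, with no versions stated). The deposited values are therefore a scaled signal per transcript in 2 forms, estimated counts (here scaled counts) and TPM, and 9363 rows without values were left out. Scaled counts were divided by the value of 1 read in each library to give recovered reads, and 50.3% of the values came out whole (within 0.01), since reads were shared between transcripts. As these values are not raw counts, a test for scaled values was used.

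Transcripts were summed per gene. Genes were kept with the CPM of 10 reads at median depth in at least 5 libraries and at least 15 reads in total, which left 12941 genes, and transcripts with at least 5 reads in at least 47% of libraries. log2(scaled count + 0.5) was tested with limma 3.58.1 (lmFit, eBayes with trend) in R 4.3.3, and the model held group alone, and p-values were adjusted by Benjamini and Hochberg over all genes or transcripts, with a threshold of 0.05. The R package data.table (version 1.17.8) read the matrices, and permutation tests were made with scipy in Python. Shares, ratios and marker sums were compared by exact two-sided permutation tests, whose smallest p-value with 5 against 5 is 0.00794. The fits were tested on simulated data whose changes were larger than those fitted for the Ywha genes. Those data had no shared deviations by library number, so they do not bear on calls near the threshold.

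The deviations of same-numbered libraries from their group means, by the library numbers in the deposited file, correlated at 0.131 to 0.351 in all 5 pairs, and those of other pairs at -0.179 to 0.167, so fits with the number as a block are given beside results whose call they change. The main fits and the permutation tests did not use the number. Whether libraries came from separate animals was not given in the sources used here, so p-values measure the spread between these libraries.

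All members and transcripts were named, as were listed genes that passed or else the 2 with the smallest p-value of each list, and the 5 genes most like Ywhag. Of the growth signalling clients, 1 gene due to be named is not reported here. The members and gene lists were chosen with earlier results of these data known. Promoter sequences come from RefSeq (GRCr8), another build than that of the deposited table.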

Additional observations from a re-analysis of the deposited data

How the results depend on the processing

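All 18 alternatives kept the direction of Ywhag, of Ywhaz and of the fall of Scrt1, whose log2 fold change was -2.26 to -1.80 with each library left out. The number of members called, 1 in the report, was 0 with upper quartile scaling, with log2(TPM + 1), with log2(TPM + 0.1) and with no filter, and 2 with the replicate block. It was 0 to 1 with 1 library left out, and in 2 of those cases the member called was Ywhag. Over all 12941 genes, 136 were called in the report, 138 with upper quartile scaling, 107 on either TPM scale and 259 with the replicate block. With no filter 96 of 18647 genes were called, and with 1 library left out 62 to 133 of 12941. For Ywhaz the limma adjusted p was 0.0506 with upper quartile scaling, 0.0565 with log2(TPM + 1), 0.0570 with log2(TPM + 0.1) and 0.0675 with no filter. With no filter more genes were tested, and for the others the cause was not tested. The number of member transcripts called, 1 in the report, was 0 with log2(TPM + 1), with no filter and with the replicate block, and 0 to 1 with 1 library left out. Over all transcripts tested, 73 were called in the report, 64 with log2(TPM + 1), 66 with no filter and 29 with the replicate block. With 1 library left out, 16 to 67 transcripts were called.

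Of the kinases and clients, 2 were called in the report, 1 with log2(TPM + 1), log2(TPM + 0.1) or no filter, and 1 to 2 with 1 library left out. The counts over all genes in these settings are those given above. No transcript share was called, nor with shares of scaled counts, and 0 to 1 with 1 library left out. The 8 member pairs were 8 with TPM ratios and 6 to 8 with 1 library left out. Sign flips within the 5 same-numbered pairs cannot give a p-value below 0.0625, so no paired test of shares or ratios was made. The replicate block changed no other call named here. Values near 0, as those of Sfn, are limited by depth, while the Ywha genes rest on at least 1865 reads per library and are limited by the spread between libraries.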
